A study of Mus musculus with 12 samples.

Results

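FGFR1 HiChIP was compared with Hi-C in mouse embryonic stem cells (ESC), to describe where in the genome, and over which distances, contacts recovered with an antibody against FGFR1 were more or less frequent than contacts recovered without one. Both deposited contact tables were used on the 19 autosomes, and the share of their read-pair ends in each 10 kb bin and the share of their read pairs in each distance class were set against each other. Of the 246285 autosomal 10 kb bins, 139488 were measured, which are those in which at least 10 FGFR1 ends were expected if the pooled ends of both tables fell there in proportion to the table totals. A read-pair end was placed at the midpoint of its anchor, the genomic interval to which the reads had been assigned. The series has 12 libraries, made up of 2 biological replicates each of Hi-C, FGFR1 HiChIP and CTCF HiChIP in ESC and in neuronal committed cells (NCC). ESC were E14Tg2A cells, a single mouse line, grown on gelatin with LIF at 100 U/mL. NCC came from the same line after 48 h in 1 μM retinoic acid without LIF. FGFR1 and CTCF HiChIP used an antibody against each protein, and no HiChIP with a control antibody was analysed here. Contact tables hold no transcript levels, so the cell type could not be checked against its marker genes.

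Hi-C cuts fixed chromatin with a restriction enzyme, joins ends that lie close together in the nucleus and sequences the joined fragments as read pairs, so that each pair reports a contact between both loci. HiChIP adds an immunoprecipitation, and a contact is kept when either of its fragments was bound by the protein or fixed to it. FGFR1 is a receptor tyrosine kinase for fibroblast growth factors at the cell surface, and it also enters the nucleus (nFGFR1), where it binds the coactivator CBP and acts with retinoid and Nur receptors on genes. CTCF binds a long DNA motif and, with the ring-shaped cohesin complex, sets the ends of many chromatin loops.

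Each deposited table merges both replicates, so no error between replicates exists for any value below. All intervals are 95% intervals that cover counting error only, and no p-value is given. FGFR1 HiChIP held 2645713 autosomal read pairs in 1908347 interactions between 200749 anchors, and ESC Hi-C held 20643821 read pairs in 10179499 interactions between 245035 anchors. Hi-C thus had 7.8 times as many ends as FGFR1 HiChIP. All anchors began at a GATC site. Anchors covered 23.14% of the autosomal sequence in FGFR1 HiChIP and 37.3% in Hi-C, with median lengths of 2330 and 2897 bp. In FGFR1 HiChIP, 60.53% of the read pairs lay in interactions seen with a single read pair, against 39.27% in Hi-C. Because anchors were called in each table on its own, a bin can hold ends in one table and none in the other when the anchors were drawn differently. The tables set beside this pair, CTCF HiChIP in ESC with 1210721 autosomal read pairs and FGFR1 HiChIP and Hi-C in NCC with 3177422 and 21142644, were made in the same way.

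The base sequences below show what the read-pair ends were counted around. Each is from the GRCm38.p6 (mm10) genome, with the 12 bases of the CTCF consensus in capitals in a stretch of 40 bases, and each is the site nearest to the start of a pluripotency, FGF, architectural or nuclear receptor gene, from 1 kb away at Fgf4 to 43.9 kb at Nr4a1.
Pou5f1, chr17:35544863-35544902, plus strand: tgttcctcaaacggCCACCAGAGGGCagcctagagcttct
Sox2, chr3:34647873-34647912, plus strand: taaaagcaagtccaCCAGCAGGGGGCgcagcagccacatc
Nanog, chr6:122708996-122709035, plus strand: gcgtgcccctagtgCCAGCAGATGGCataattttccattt
Esrrb, chr12:86350163-86350202, minus strand: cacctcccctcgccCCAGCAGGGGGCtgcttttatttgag
Fgfr2, chr7:133133739-133133778, minus strand: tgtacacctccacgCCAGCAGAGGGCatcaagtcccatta
Fgf4, chr7:144846344-144846383, plus strand: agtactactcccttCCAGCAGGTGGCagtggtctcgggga
Ctcf, chr8:105622552-105622591, plus strand: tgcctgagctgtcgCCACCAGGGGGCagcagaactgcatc
Nr4a1, chr15:101210389-101210428, plus strand: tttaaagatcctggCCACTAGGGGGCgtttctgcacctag
The Pou5f1, Sox2, Nanog and Esrrb sites lie near genes of the pluripotency network, Fgf4 encodes the growth factor that ESC secrete and Fgfr2 a receptor for it, and Nr4a1 encodes the orphan receptor Nur77. Their ends in the 5 kb around the site follow with the other CTCF sites.

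At the scale of 1 mb, FGFR1 HiChIP shifted contacts towards the AT-rich, gene-poor part of the genome. Among 2265 bins of 1 mb, 322 held at least 2 times the share of ends of Hi-C, which is 14.2% of them, and 2 held at most 0.5 times that share. When the bins were ordered by GC content and divided into 5 groups of 453, the median log2 ratio of FGFR1 over Hi-C fell from 1.10 in the GC-poorest group to 0.54, 0.17, −0.11 and −0.41 in the GC-richest. The GC-poorest group took 10.75% of the FGFR1 ends and 5.037% of the Hi-C ends. The GC-richest group took 31.85% and 43.25%. Of the 322 bins, 261 lay in the GC-poorest group and 0 in either of the 2 richest groups. Across the 2265 bins, which are not replicates, Spearman's rho of the ratio was −0.899 with GC content and −0.640 with the number of protein-coding gene starts. It was −0.873 with the Hi-C ends, which are the denominator of the ratio.

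**Figure D1:**
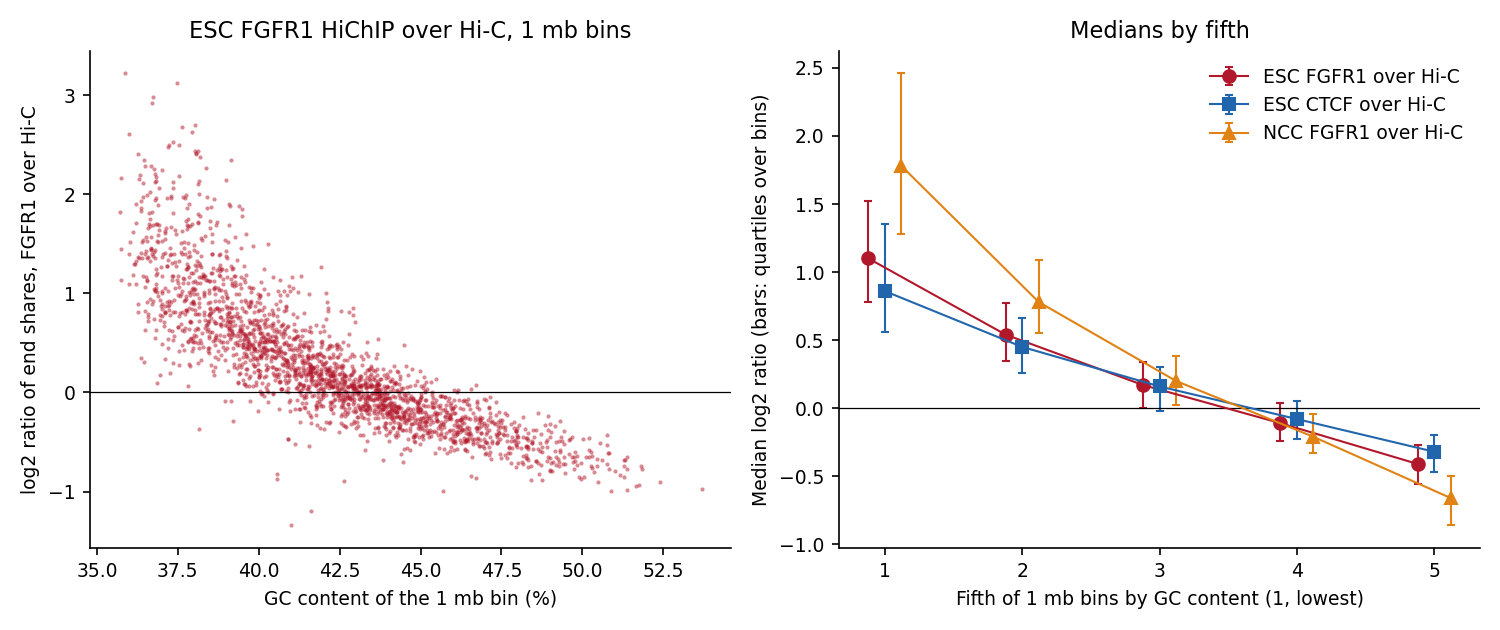
Left, each point is a 1 mb autosomal bin, with its GC content in percent on the x axis and the log2 ratio of the share of read-pair ends in ESC FGFR1 HiChIP over ESC Hi-C on the y axis. Right, medians over the bins of each of the 5 GC groups, with quartiles over bins as bars, for ESC FGFR1, ESC CTCF and NCC FGFR1 over the Hi-C of the same cells. The ratio falls with GC content in all 3, from 1.10 to −0.41 in ESC FGFR1.

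The same fall was present in both other HiChIP tables. CTCF over the same ESC Hi-C table went from a median of 0.86 in the GC-poorest group to −0.32 in the GC-richest, and FGFR1 in NCC over NCC Hi-C from 1.78 to −0.66. The ESC values of FGFR1 and CTCF share their Hi-C table and are therefore given side by side only. ESC FGFR1 and NCC FGFR1 share no library, and Pearson's r of their ratios over the 2265 bins was 0.798, over points that share base composition. Of the 322 bins with a ratio of at least 2 in ESC, 280 (87%) also had one in NCC, where 24.2% of all bins did. The part of base composition, depth or anchor calling in this shift was not tested.

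Among the 12 highest bins were gene deserts and bins with few genes, some of them genes of neurons. In chr14:89000001-90000000, which holds no protein-coding gene start and is 35.9% GC, FGFR1 HiChIP had 1786 ends and Hi-C 1489, a log2 ratio of 3.22 (3.10 to 3.35). The desert in chr10:55000001-56000000 followed, with 1625 and 1450 ends and a log2 ratio of 3.12. In chr10:102000001-103000000, where Nts (the neuropeptide neurotensin) and Rassf9 start, the log2 ratio was 2.98. Cdh18, an adhesion protein of neurons, starts in chr15:22000001-23000000, where FGFR1 HiChIP had 1449 ends and Hi-C 1489. Grxcr1 starts in chr5:68000001-69000000, where the log2 ratio was 2.70. Mdfic starts in chr6:15000001-16000000, which also holds part of Foxp2, a transcription factor of brain circuits for speech and song, and the log2 ratio there was 2.68. Adgrl3, a latrophilin of synapses, lay in a bin at 2.50. In all 12 highest bins the log2 ratio was 1.26 or more for FGFR1 in NCC and 1.64 or more for CTCF in ESC.

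The lowest 1 mb bins were of 2 kinds. The first 2 were of average base composition and low in ESC FGFR1 HiChIP alone or more than in the other tables. In chr15:32000001-33000000, with Sema5a (a semaphorin of axon guidance) and Sdc2 (a heparan sulfate proteoglycan), FGFR1 HiChIP had 184 ends and Hi-C 3628, a log2 ratio of −1.34 (−1.59 to −1.08). There the log2 ratio was 0.14 with CTCF and 0.33 for FGFR1 in NCC, so that the ESC FGFR1 value was the only one of the 3 below 0. The difference between the tables was not tested. In chr7:47000001-48000000, a cluster of Mrgpr receptors of itch and pain neurons, the log2 ratio was −1.20, against −0.49 with CTCF and −0.81 in NCC. The remaining 10 were GC-rich and mostly dense in genes, such as chr10:80000001-81000000 with 53 gene starts, among them Polr2e (a subunit shared by the RNA polymerases), Gpx4 (which reduces lipid peroxides) and the kinase gene Stk11, at −0.97 (−1.01 to −0.92). The imprinted Dlk1 and Rtl1 genes in chr12:109000001-110000000 were at −0.99, with 1750 FGFR1 ends and 27160 Hi-C ends. Among whole chromosomes, chromosome 3 (40.45% GC) was highest at 0.31 and chromosome 11 (43.81% GC) lowest at −0.24.

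By distance between different anchors, FGFR1 HiChIP held more of its read pairs at under 10 kb and at over 500 kb than Hi-C. It held fewer from 10 to 500 kb. Pairs inside a single anchor were a class of their own and are left out of the class under 10 kb. Pairs under 10 kb made up 9.594% of the FGFR1 table (9.558 to 9.629%) and 8.516% of the Hi-C table (8.504 to 8.528%), a log2 ratio of 0.17. From 10 to 500 kb, the range of most loops and domains, the shares were 38.74% and 41.54%, a log2 ratio of −0.10. Pairs at least 1 mb apart were 15.64% and 14.24%, a log2 ratio of 0.14. All 3 of these differences had the same direction on each of the 19 chromosomes. The median distance between the anchors of an intra-chromosomal pair, pairs inside a single anchor left out, was 136 kb in FGFR1 HiChIP and 120.4 kb in Hi-C.

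Within these ranges the classes changed step by step. The log2 ratio was −0.16 at 10 to 20 kb, −0.14 at 20 to 50 kb, −0.12 at 50 to 100 kb and −0.09 at 100 to 200 kb, and it was below 0 on all 19 chromosomes in each. At 200 to 500 kb it was −0.02, below 0 on 17 chromosomes. From 500 kb to 50 mb it lay between 0.10 and 0.15. Pairs at least 50 mb apart were nearly equal at 1.124% and 1.099%, with 11 chromosomes above 0 and 8 below. Pairs on different chromosomes were 10.83% of the FGFR1 table and 10.04% of the Hi-C table (log2 ratio 0.11, above 0 on 18 of 19 chromosomes). Pairs inside a single anchor were 20.02% and 20.85% (−0.06, below 0 on all 19). This lower share is opposite to the higher share under 10 kb, and an excess across both classes was not tested.

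**Figure D2:**
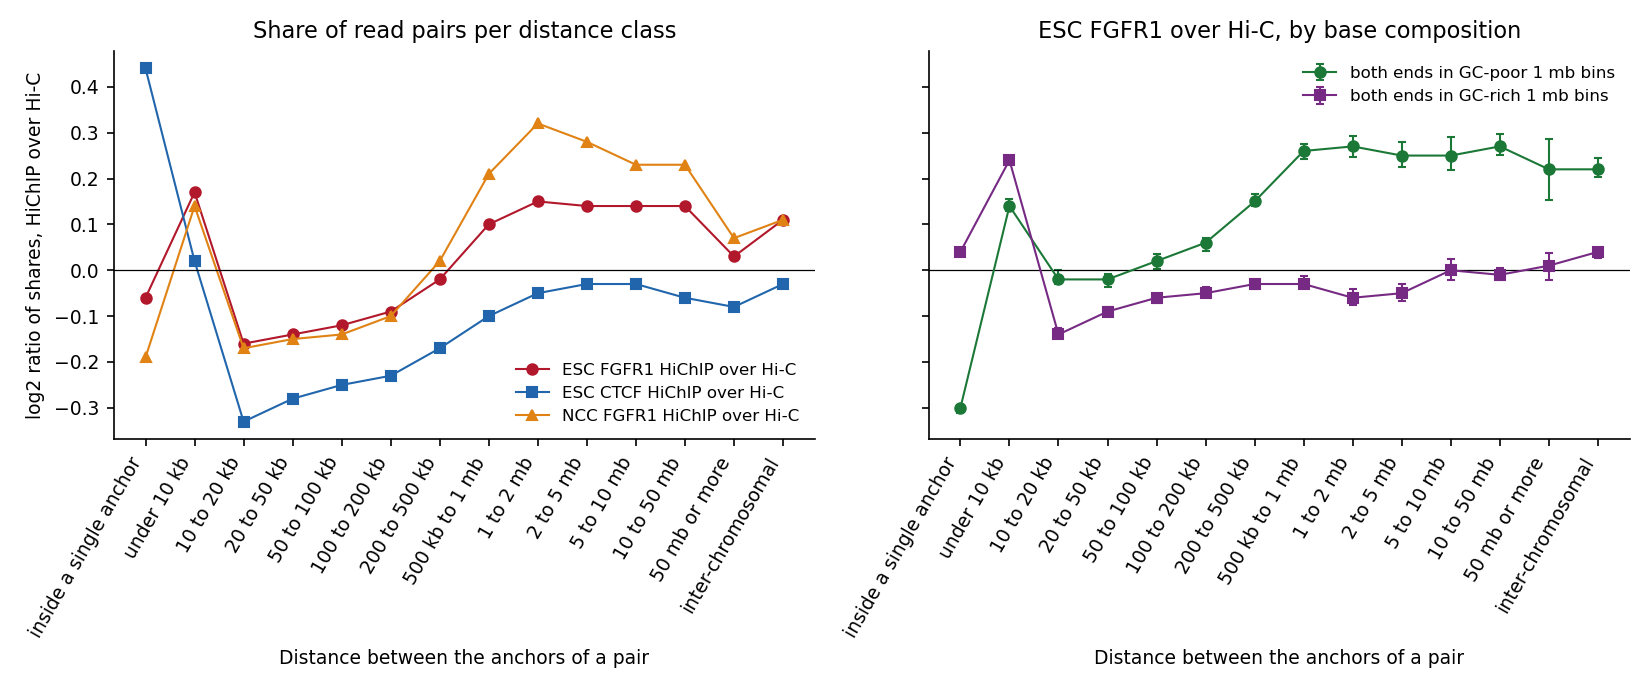
Left, log2 ratio of the share of read pairs in HiChIP over Hi-C (y axis) for 14 classes of distance between anchors (x axis), for ESC FGFR1, ESC CTCF and NCC FGFR1. Right, the ESC FGFR1 ratio among pairs with both ends in GC-poor or both in GC-rich 1 mb bins, with 95% counting intervals as bars. ESC FGFR1 in the left plot is at 0.17 under 10 kb, below 0 from 10 to 500 kb and between 0.10 and 0.15 from 500 kb to 50 mb, and from 500 kb upwards the GC-poor bins lie between 0.22 and 0.27 and the GC-rich bins between −0.06 and 0.04.

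The excess of long contacts lay in the GC-poor part of the genome. With both ends in the GC-poor 1 mb bins (the lower 2 of the 5 groups), the log2 ratio of the class shares lay between 0.22 and 0.27 in every class from 500 kb upwards, inter-chromosomal pairs included. Pairs inside a single anchor were at −0.30, with 25.06% of the FGFR1 pairs and 30.93% of the Hi-C pairs. These are shares of all pairs in such bins, so a lower share inside a single anchor raises the shares of the other classes. Its part in the excess was not tested. With both ends in the GC-rich bins (the upper 2 groups), the log2 ratio was −0.06 at 1 to 2 mb, −0.01 at 10 to 50 mb, 0.01 at 50 mb or more and 0.04 for inter-chromosomal pairs. The class under 10 kb, which leaves out pairs inside a single anchor, was at 0.14 in GC-poor and 0.24 in GC-rich bins. In GC-poor bins its share was 11.03% in FGFR1 HiChIP and 9.988% in Hi-C. That rise was smaller than the fall inside a single anchor. The pairs of both classes were thus a smaller share of FGFR1 HiChIP than of Hi-C in GC-poor bins. In GC-rich bins, pairs inside a single anchor were at 0.04. The difference between both groups of bins was not tested.

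CTCF HiChIP was set beside FGFR1 over the same Hi-C table. Its pairs inside a single anchor made up 28.32% against 20.85% in Hi-C (log2 ratio 0.44), where FGFR1 was at −0.06. Pairs at least 1 mb apart were at −0.05 with CTCF, and at 0.09 when the share was taken among pairs between 2 different anchors, for which FGFR1 was at 0.12. From 10 to 500 kb the log2 ratios were −0.25 with CTCF and −0.10 with FGFR1. In NCC, FGFR1 HiChIP over NCC Hi-C was at −0.19 inside a single anchor, 0.14 under 10 kb, −0.17 at 10 to 20 kb, 0.32 at 1 to 2 mb and 0.11 for inter-chromosomal pairs.

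The excess of intra-chromosomal pairs at least 1 mb apart did not remain without the interactions seen with a single read pair. When interactions with a score of at least 2 only were kept, which left 39.5% of the FGFR1 pairs and 60.7% of the Hi-C pairs, the log2 ratio of pairs at least 1 mb apart turned to −1.35 and that of pairs inside a single anchor to 0.44, while that of inter-chromosomal pairs rose from 0.11 to 0.46. The filter took a larger part of the FGFR1 table, which had fewer pairs.

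Contacts between promoters were a smaller share of FGFR1 HiChIP than of Hi-C. Among intra-chromosomal pairs at least 20 kb apart, those joining 2 bins with a protein-coding gene start were 2.792% (2.765 to 2.819%) in FGFR1 HiChIP and 3.689% (3.678 to 3.700%) in Hi-C, a log2 ratio of −0.40. Pairs with a gene start at 1 end were 19.88% and 23.40%, and pairs without one 77.33% and 72.91%. The deficit was present in every distance class, from −0.33 at 50 to 200 kb to −0.50 at 1 to 5 mb, and it was −0.38 for inter-chromosomal pairs. CTCF was at −0.12 for the promoter pairs and FGFR1 in NCC at −0.59. Gene starts lie mostly in GC-rich sequence, and the part of base composition in this deficit was not tested.

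Base composition of both ends of a contact was compared at distances of 5 mb or more. Among pairs with ends in the lower 2 or upper 2 GC groups, pairs of GC-poor with GC-poor bins made up 19.76% in FGFR1 HiChIP and 9.7% in Hi-C, and pairs of GC-rich with GC-rich bins 49.24% and 65.32%. The preference of like for like, as 4 times the product of both kinds of like pairs over the square of the mixed pairs (1 where ends pair at random), was 4.05 (3.96 to 4.14) in FGFR1 HiChIP and 4.06 (4.02 to 4.10) in Hi-C. Their intervals overlap. For inter-chromosomal pairs the values were 2.18 (2.13 to 2.23) and 2.32 (2.30 to 2.34).

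At 10 kb the ratio was far more scattered than at 1 mb. The median log2 ratio over the 139488 bins was −0.17, so that scaling to the median bin raises every value by 0.17, and the quartiles were −1.43 and 0.63. There were 21735 bins enriched at least 2-fold in FGFR1 HiChIP (15.6%) and 42620 depleted to 0.5 or less (30.6%). Of the pooled ends, Hi-C gave 7.8 for each FGFR1 end. Bins with Hi-C ends alone therefore passed the minimum of expected ends more easily than bins with FGFR1 ends alone. Before this filter, 157040 bins held FGFR1 ends and 177688 held Hi-C ends. The part of the filter in these counts, in the median and in the bins with 0 ends was not tested. The balance of enriched and depleted changed with the unit and with the anchors kept. In 50 kb bins 7971 were enriched and 4813 depleted. Regions of merged anchors gave 19889 (17.4%) and 8783 (7.7%), with regions that held anchors of 1 table only left out. In 10 kb bins with shared anchors only, 14927 were enriched and 18516 depleted. With at least 50 expected ends per 10 kb bin, 654 were enriched and 10529 depleted. Much of the spread was at the scale of single anchors. FGFR1 HiChIP had 0 ends in 27056 of the bins (19.4%), of which 8618 were overlapped by an FGFR1 anchor with its midpoint in another bin. Hi-C had 0 ends in 300, of which 293 were overlapped by a Hi-C anchor. Of 19064 runs of adjoining enriched bins, 88.3% were 1 bin long and the longest was 70 kb. Of 31789 depleted runs, 75.9% were 1 bin long and the longest 140 kb. When the ends of both neighbours were added, 36.8% of the enriched bins stayed at 2-fold or more, and 39.3% of the depleted bins stayed at 0.5 or less. Over the 122686 bins measured in both cell types, r between ESC and NCC ratios was 0.196. Of 17880 enriched ESC bins measured in NCC, 29.9% were enriched there, against 15.5% of all bins measured in both.

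The 12 most enriched runs each had 0 Hi-C ends with ends at the midpoints, and no fold is given for them, since Hi-C anchors with a midpoint elsewhere overlapped them. With ends spread over the bins that an anchor overlaps, all 12 held Hi-C ends, and their log2 ratios were between 0.17 and 1.64. Txn2, which encodes the thioredoxin of mitochondria, overlaps the first, chr15:77910001-77920000, with 235 FGFR1 ends and 0 Hi-C ends at midpoints, and 171.5 and 834.4 ends when spread (log2 ratio 0.68). With both neighbouring bins added it had 489 FGFR1 and 3189 Hi-C ends, a log2 ratio of 0.26, so the excess was that of 1 bin. Next was chr4:139220001-139240000 in Capzb, a subunit of the protein that caps actin filaments, with 229 and 0 ends at midpoints, a log2 ratio of 0.17 with ends spread and −0.89 with its neighbours. Between this run and a further enriched bin in Capzb (chr4:139200001-139210000, 196 and 0 ends) lay the first of the depleted runs, chr4:139210001-139220000, with 0 FGFR1 and 2899 Hi-C ends at midpoints. With ends spread, the same bin had 84.3 and 643.9 ends and a log2 ratio of 0.03, so that neither the excess nor the deficit in Capzb remained. The enriched bin near Zfp217 (chr2:170280001-170290000, 190 and 0 ends) likewise adjoined a depleted bin (chr2:170290001-170300000, 0 and 2312 ends). With their neighbours added, the 12 runs lay between −0.96 and 0.72 on the log2 scale.

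Other enriched bins held the starts of genes, namely 3110082J24Rik and Garem2 (197 FGFR1 ends), Sat2 (195), Mettl5 (194), Cacfd1 (192) and Ski (173), each with 0 Hi-C ends. Mettl5 encodes a methyltransferase of ribosomal RNA, Ski a corepressor of the TGF-β and BMP pathways, and Garem2 an adaptor of receptor tyrosine kinase signalling. FGFR1 HiChIP in NCC also had ends in all 12 runs, from 40 to 242, with 0 NCC Hi-C ends in 3 of them. In the others NCC Hi-C had from 50 to 2860 ends. The NCC tables held 6354844 FGFR1 and 42285288 Hi-C ends in all. By these totals, the first run, with 173 and 2860 ends, had a lower share in FGFR1 HiChIP than in Hi-C. The Garem2 bin, with 64 and 50, had a higher one. Ends of FGFR1 HiChIP in NCC are thus not in themselves an excess there. The promoters of the 6 genes were taken from RefSeq (GRCm38.p6) as 300 bases, from 250 before the gene start to 50 after it. A GATC site, at which anchors start, occurs in 47.7% of the 31396 autosomal promoters of that table. It was found in the promoters of Mettl5, Cacfd1 and Ski, shown here with GATC in capitals because the position of these sites sets where anchors can begin, and not in the other 3. GATC reads the same on both strands.
Mettl5, chr2:69885566-69885865, minus strand: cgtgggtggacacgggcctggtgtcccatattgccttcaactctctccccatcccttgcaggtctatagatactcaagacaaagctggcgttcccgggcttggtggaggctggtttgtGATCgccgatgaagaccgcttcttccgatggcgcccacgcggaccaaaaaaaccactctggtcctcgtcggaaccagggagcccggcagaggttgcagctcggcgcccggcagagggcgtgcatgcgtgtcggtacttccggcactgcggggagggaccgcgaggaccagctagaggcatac
Cacfd1, chr2:27009676-27009975, plus strand: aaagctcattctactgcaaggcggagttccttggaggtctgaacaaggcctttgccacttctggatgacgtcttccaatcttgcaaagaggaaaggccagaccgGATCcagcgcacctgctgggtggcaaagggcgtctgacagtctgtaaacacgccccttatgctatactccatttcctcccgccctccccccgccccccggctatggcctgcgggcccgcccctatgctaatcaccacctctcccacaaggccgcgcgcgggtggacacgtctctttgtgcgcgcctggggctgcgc
Ski, chr4:155222486-155222785, minus strand: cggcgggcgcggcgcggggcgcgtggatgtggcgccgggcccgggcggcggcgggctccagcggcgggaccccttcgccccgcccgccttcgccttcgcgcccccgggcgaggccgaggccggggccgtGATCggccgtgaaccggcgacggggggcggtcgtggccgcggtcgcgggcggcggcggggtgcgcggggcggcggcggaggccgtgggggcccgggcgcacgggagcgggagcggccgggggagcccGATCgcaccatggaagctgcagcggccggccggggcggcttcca
Within these 300 bases Ski has 59 CpG dinucleotides, Mettl5 24 and Cacfd1 19, against a median of 7 in all promoters of the table. Base composition of the bins themselves was 52.6% GC at Ski, 40.8% at Mettl5 and 50.1% at Cacfd1.

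The 8 most depleted runs had 0 FGFR1 ends at midpoints, and they too are given with ends spread. After the bin in Capzb came chr19:41750001-41760000 near Slit1, a repellent of growing axons, with 0 and 2483 ends at midpoints and 4.2 and 726.6 ends spread (log2 ratio −4.31). In chr5:125320001-125340000 in Scarb1, the receptor for HDL, the log2 ratio was −3.01 with ends spread. At midpoints it had 0 FGFR1 and 2434 Hi-C ends, and 78 and 2528 with both neighbours added (−2.05). The neighbours thus held all 78 FGFR1 ends and few of the Hi-C ends, so the deficit was that of the run itself. Others lay in Gse1 (−1.11 with ends spread), Wdr62, a protein of the spindle poles (−0.73), and Ahnak2 (−1.54) and near Bcas1 (−0.30).

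Bins with a gene start were a little lower than bins without one over the genome, and a little higher at like base composition. The median log2 ratio was −0.26 over 15003 bins with a protein-coding gene start and −0.16 over 124485 without. When the 10 kb bins were divided into 5 groups by their own GC content, bins with a gene start were higher in all 5, with 0.31 against 0.25 in the GC-poorest and −0.55 against −0.68 in the GC-richest. Fewer of them had 0 FGFR1 ends, at 11.4% against 18.2% in the GC-richest group. In a second comparison the order was the opposite. Overlapping FGFR1 and Hi-C anchors were merged into 142302 regions that held ends of both tables, of which 114022 were measured. Their median log2 ratio was 0.28, and regions with a gene start were lower than those without in all 5 groups by GC content of the 1 mb bin, with −0.32 against −0.09 in the GC-richest. The second comparison differed from the first in its unit, in the GC content used for grouping and in leaving out regions with anchors of 1 table only, and which of these turned the order was not tested.

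Profiles over gene starts gave a small difference. FGFR1 ends in the central 1 kb of 20807 protein-coding gene starts were 2.26 times the level at 80 to 100 kb, against 2.04 times in Hi-C and 2.37 times in CTCF HiChIP. Over the central 5 kb the log2 ratio of the FGFR1 to the Hi-C peak was 0.05 (0.04 to 0.06) with ends spread over the anchor. It was −0.02 (−0.03 to −0.01) with ends at the midpoints, so its direction rests on how an end is placed. At the 11404 starts with a CpG island, FGFR1 rose to 2.71 times and Hi-C to 2.35 times in the central 1 kb, and the 5 kb log2 ratio was 0.09 (0.02 at midpoints). At starts without one it was −0.02 (−0.08 at midpoints).

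At 12245 sites with the CTCF consensus, FGFR1 ends reached 1.54 times the level at 80 to 100 kb in the central 1 kb, against 1.36 times in Hi-C and 2.09 times in CTCF HiChIP. Over 5 kb the log2 ratio over Hi-C was 0.06 (0.05 to 0.07) for FGFR1 and 0.33 (0.32 to 0.34) for CTCF. With ends at midpoints these were 0.01 and 0.30. The CTCF peak thus exceeded the Hi-C peak under either placement of the ends, and the FGFR1 value lay near 0 under the second. In NCC, FGFR1 over Hi-C was at 0.01 at these sites.

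**Figure D3:**
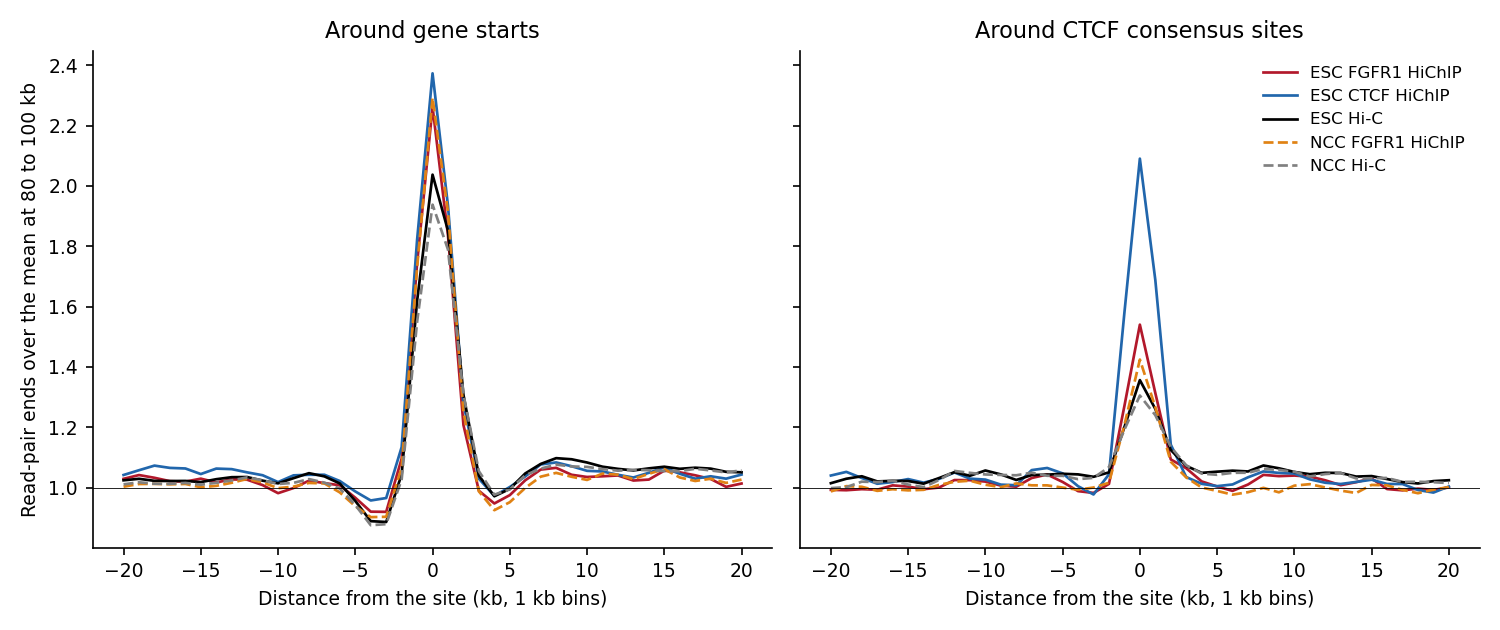
Read-pair ends per 1 kb around 20807 protein-coding gene starts (left) and 12245 CTCF consensus sites (right), with the distance from the site in kb on the x axis and the level relative to the mean at 80 to 100 kb on the y axis. Each line is 1 pooled table. At gene starts the 3 ESC tables peak at 2.26 (FGFR1), 2.37 (CTCF) and 2.04 (Hi-C), and at CTCF sites at 1.54, 2.09 and 1.36.

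At the 8 sites printed above, the 5 kb around the site differed widely. The site 2.51 kb from Sox2 had 49 FGFR1 ends and 134 Hi-C ends, a log2 ratio of 1.49. The Esrrb site had 37 and 171 ends (0.74), the Fgfr2 site 46 and 224 (0.67), the Pou5f1 site 53 and 282 (0.55) and the Nr4a1 site 71 and 445 (0.31). The site near Ctcf itself had 38 and 298 (−0.01). Nanog was lower, with 28 FGFR1, 363 Hi-C and 0 CTCF HiChIP ends. At Fgf4 both HiChIP tables had 0 ends and Hi-C 357. These are the single sites nearest to genes fixed for their biology, and a site here is a match of letters and not a bound position.

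Around genes, windows of 50 kb around the 1 kb bin that holds the start, with ends spread evenly over the anchor, were used beside the 10 kb bins. Over 19647 protein-coding genes measured in such windows, the median log2 ratio was −0.22, with 6.27% at 2-fold or more and 12.9% at 0.5 or less. In the pluripotency network, which keeps ESC self-renewing, the median of 33 genes was −0.31. Pou5f1 had 284 FGFR1 and 3709 Hi-C ends and a log2 ratio of −0.74 (−0.99 to −0.50). Klf4 had 34 and 781 ends and was at −1.54 (−2.24 to −0.85), although CTCF there was at 0.92. Nanog was at −0.20 (−0.44 to 0.04), Sox2 at 0.18 (−0.05 to 0.41) and Esrrb at 0.20 (−0.09 to 0.50), and these 3 intervals include 0. Zfp42 (Rex1), a marker of naive ESC, was the 1 gene of the list at 2-fold or more, with 119 and 451 ends and a log2 ratio of 1.04. In its 10 kb bin Utf1, a chromatin factor of pluripotent cells, was at 2.79, and at −0.34 in the 50 kb window.

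The median of the 35 genes of the FGF pathway was −0.47, with 7 genes (20%) at 0.5 or less, against 12.9% of all genes, and 0 at 2-fold or more. Relative to the 1 mb bin that holds each gene, the medians of the FGF and the pluripotency list were both −0.14, and that of all genes −0.05. Fgf4, the ligand that ESC make and answer to, had 184 FGFR1 and 3781 Hi-C ends, a log2 ratio of −1.39 (−1.69 to −1.09), and 0 FGFR1 against 917 Hi-C ends in its 10 kb bin. CTCF at Fgf4 was at −0.27 in the 50 kb window, and FGFR1 in NCC at −2.54. Fgfr1 itself was at 0.08 (−0.15 to 0.31) and Fgfr2 at −0.28 (−0.54 to −0.02), with 0 FGFR1 ends in its 10 kb bin against 454 of Hi-C. Of the signal chain, Map2k1, the kinase MEK1, was at 0.27, and Spred2, an inhibitor of Ras signalling, at −0.49.

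**Figure D4:**
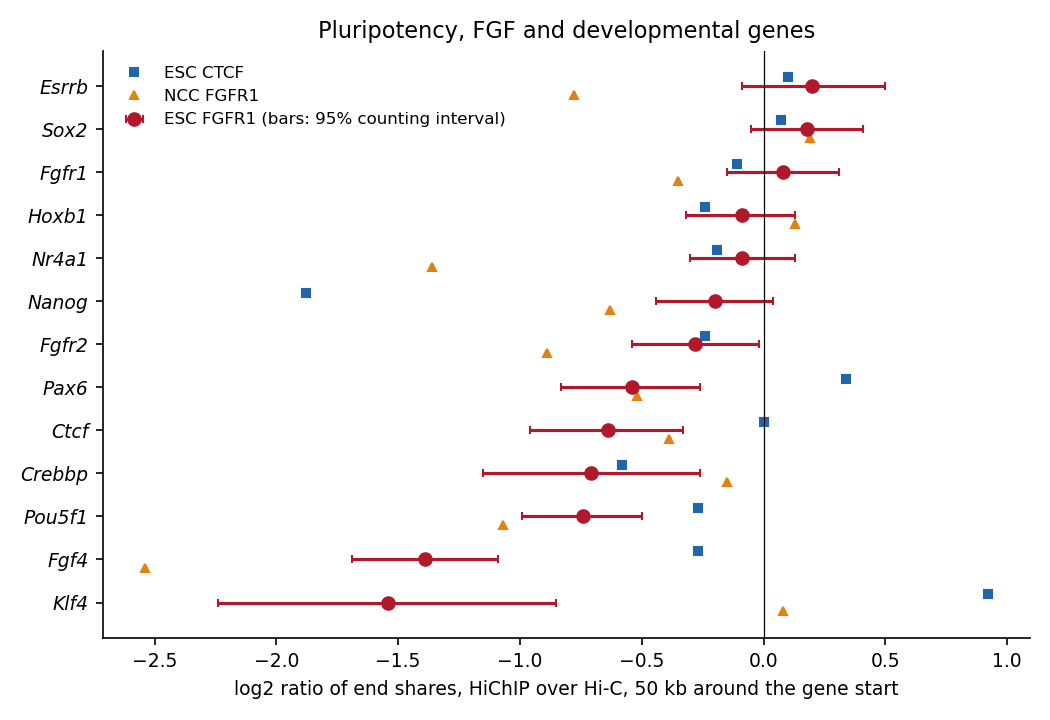
Log2 ratio of the share of read-pair ends in the 50 kb around the gene start (x axis) for 13 genes fixed by name, with 95% counting intervals as bars for ESC FGFR1 over Hi-C, and the values of ESC CTCF and NCC FGFR1 over the Hi-C of the same cells as separate marks. Rarb, with 4 FGFR1 ends, is not drawn. Of the genes drawn, Fgf4 and Klf4 are lowest in ESC FGFR1, at −1.39 and −1.54, and Esrrb and Sox2 highest, at 0.20 and 0.18, with intervals that include 0.

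Among the nuclear partners of FGFR1 and the retinoid receptors, the median of 18 genes was −0.50, with 5 (27.8%) at 0.5 or less and a median of −0.17 relative to the 1 mb bins. Crebbp, which encodes CBP, had 88 and 1122 ends and was at −0.71 (−1.15 to −0.26). The coactivator genes Ncoa1 and Ncoa3 differed, at 0.74 (0.51 to 0.98) and −1.12 (−1.41 to −0.83). Rxrb, the common partner of retinoid receptors, was at −1.16. Nr4a1 (Nur77) was at −0.09 and Nr4a2 (Nurr1) at −0.22, both with intervals that include 0. Rarb, a retinoic acid receptor that is itself induced by retinoic acid, was lowest of the genes fixed by name at −3.48 (−5.37 to −1.58). It had 4 FGFR1 and 387 Hi-C ends in ESC, and 47 FGFR1 and 0 Hi-C ends in NCC. No NCC Hi-C anchor overlapped the window, so these counts do not show a gain of FGFR1 contacts in NCC. In ESC the 10 kb bin of Rarb was below the minimum of expected ends.

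In 10 kb bins, 9.94% of the 15003 bins with a coding gene start were enriched and 28.7% depleted, and the lists are read against these shares. Of 33 bins of the pluripotency list 3 were enriched and 6 depleted, and of 32 bins of the FGF list 2 and 10. Of 17 bins of the nuclear partners 1 was enriched and 5 depleted. Among the depleted were Gbx2, a homeobox gene downstream of LIF signalling, with 0 FGFR1 and 888 Hi-C ends, and Dnmt3b, a de novo DNA methyltransferase, with 0 and 709. In their 50 kb windows, Gbx2 had 234 FGFR1 ends and a log2 ratio of −0.72, and Dnmt3b 190 ends and −0.85. Among the enriched were Map2k1 (104 and 258 ends, log2 ratio 1.64), Spred2 (117 and 401, 1.18) and Nr4a2 (47 and 161, 1.17). Of the Hox bins 4 of 28 were enriched and 10 depleted, of the neural induction bins 1 and 10 of 29, and of the Polycomb-type bins 2 and 13 of 37. Of 71 ribosomal protein gene bins 7 were enriched and 21 depleted, and of 346 olfactory receptor bins 68 and 109.

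Genes of chromatin architecture and of development followed in the 50 kb windows. Cohesin and CTCF genes had a median of 0.21 over 16 genes, with Top2b (topoisomerase IIβ) at 1.04 and Ctcf at −0.64 (−0.96 to −0.33). In 10 kb bins the median of the same list was −0.33, with 0 FGFR1 ends at Ctcf and at Stag1, a cohesin subunit. The 39 Hox genes had a median of −0.47, with 0 genes at 2-fold or more and 5 (12.8%) at 0.5 or less. The latter share was near the 12.9% of all genes. Hoxb1, an early target of retinoic acid, was at −0.09 (−0.32 to 0.13). Members of a Hox cluster share windows, and Hoxd3 and Hoxd4 share a 10 kb bin with 105 and 164 ends (2.29), while Hoxd9 and Hoxd10 share a bin with 0 and 775 ends. In the 50 kb windows this contrast was not present. There Hoxd3 and Hoxd4 were both at −0.28, Hoxd9 at −0.50 and Hoxd10 at −0.46. Genes of neural induction and the developmental regulators typical of Polycomb silencing both had a median of −0.28, over 30 and 38 genes. In the first, Emx2, a homeobox gene of the cortex, was at 0.65 (0.35 to 0.95) and Zic1 at −0.41, and Pax6, the regulator of eye and cortex, at −0.54 (−0.83 to −0.26). In the second, Isl1 was at 0.70 and Evx1 at −0.72.

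Very long genes of neurons and olfactory receptor genes had the highest medians of the 12 lists in the 50 kb windows, but not in the 10 kb bins. In the 10 kb bins the very long neural genes were at −0.08 and the olfactory receptor genes at 0.02, and the housekeeping genes were highest at 0.18. The median of 29 very long neural genes was 0.39, with 24.1% at 2-fold or more against 6.27% of all genes, and they lay in 1 mb bins with a median GC content of 39.2% against 44.4% for all genes. Macrod2 was at 1.97 (1.61 to 2.33) and Erbb4, a neuregulin receptor, at 2.20 (1.68 to 2.71). Relative to the 1 mb bin that holds each gene, the median of the list was −0.49. The 914 olfactory receptor genes had a median of 0.33, in 1 mb bins with a median GC content of 39.6%, with Olfr907 at 4.44 and Olfr9 at −1.23. Histone cluster genes were at 0.12 over 68 genes, of which 60 fell in only 29 measured 10 kb bins. Ribosomal protein genes were at −0.35 over 75, with Rpl28 at −2.01 and Rps12 at 0.29. Rpl22 shows the difference between scales, with 108 FGFR1 and 0 Hi-C ends in its 10 kb bin and −0.55 in the 50 kb window. The 26 housekeeping genes were at −0.05, with Vcp at 0.86 and Eef2 at −0.27.

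**Figure D5:**
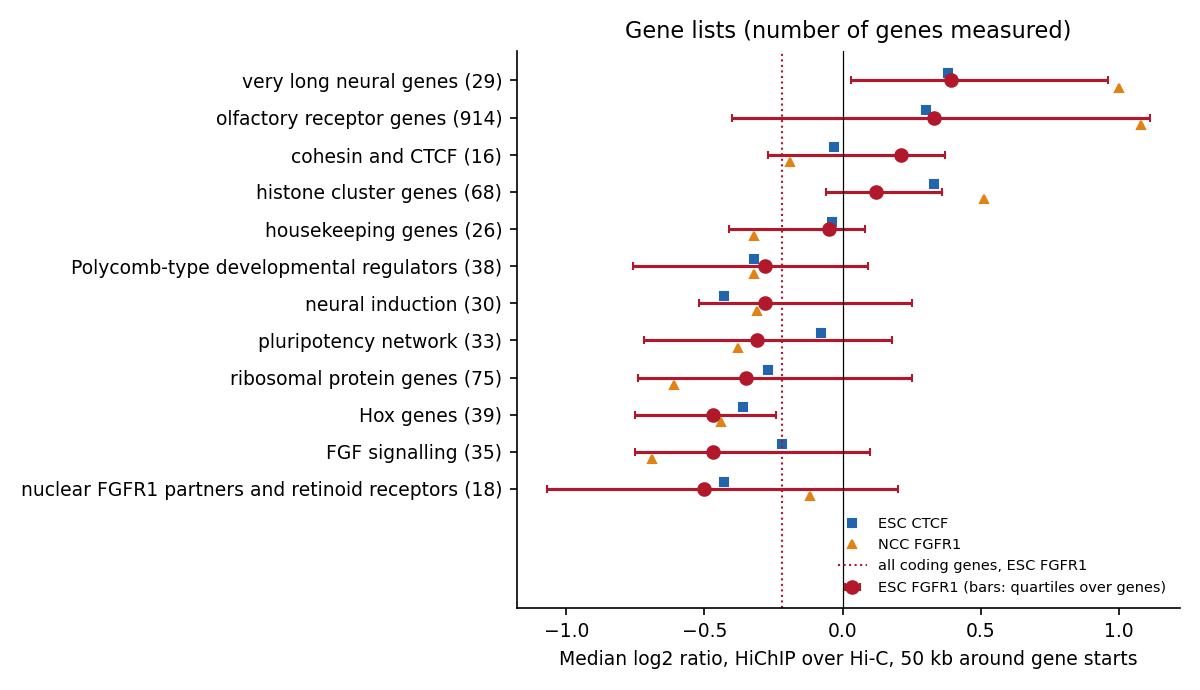
Median log2 ratio over the genes of 12 lists, in windows of 50 kb around the gene start (x axis), with quartiles over genes as bars for ESC FGFR1 over Hi-C and the medians of ESC CTCF and NCC FGFR1 as separate marks. The dotted line is the median of all protein-coding genes, −0.22. Very long neural genes (0.39) and olfactory receptor genes (0.33) are highest, and the FGF, Hox and nuclear partner lists (−0.47, −0.47 and −0.50) lowest.

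CTCF over the same Hi-C table was set beside these lists in the same windows. Its medians were 0.38 for the very long neural genes, 0.30 for the olfactory receptor genes, −0.36 for the Hox genes and −0.43 for the nuclear partners. For the pluripotency and FGF lists it was at −0.08 and −0.22, where FGFR1 was at −0.31 and −0.47. FGFR1 in NCC was at −0.38 for the pluripotency list, −0.69 for the FGF list and 1.00 for the very long neural genes. No list has a test here, since each value comes from 1 pooled table and genes are not replicates.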

How the data were processed

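Chromatin contacts were measured by Hi-C and HiChIP in ESC and NCC. The authors aligned reads to mm10 with HiC-Pro, assigned valid pairs to anchors called in each sample with hichipper, applied no filter on q and merged 2 replicates per table. Per the study's methods both programs ran with default settings, and hichipper took each sample by itself with every orientation of read pairs. The deposited score is a count of read pairs per interaction. Of the tables, 5 were used and 1, CTCF HiChIP in NCC, was not used here. Only autosomes were kept (98.31 to 99.36% of the pairs).

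From the counts, shares and log2 ratios were computed with Python 3.11.15, numpy 2.4.6, pandas 2.3.3 and scipy 1.17.1, and plotted with matplotlib 3.10.9. Bins needed 10 expected FGFR1 ends (100 at 1 mb, with under 20% gaps). A pseudocount of 0.5 ends, scaled to each total, was added. Shares have Wilson intervals. Ratios of ends in 10 kb and 1 mb bins have intervals in which a pair with both ends in a bin adds 2 ends. Intervals of the 50 kb windows and site profiles double the counting variance of every end. Intervals cover counting error only. Gene starts were from GENCODE on GRCm38, and CpG islands and CTCF consensus matches were found in that sequence on both strands. The ratio per 10 kb bin with its interval, and the Wilson interval, were tested on simulated data. Anchors called in each table on its own were not part of that simulation.

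Named were the 12 most enriched and 8 most depleted runs (0 left out for masked repeats above 80%), genes fixed by name, and the highest and lowest 2 of each list in 10 kb bins, of which the text gives a part. Some of these are not reported here. The comparison, gene lists and alternatives were chosen with earlier results of these data known. Alternatives covered the score, anchors, bins, scaling, filters and placement of ends. The 1 mb bins, site profiles, 50 kb windows and merged anchor regions were added after seeing the data.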

Additional observations from a re-analysis of the deposited data

Results flagged for a closer look

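In the class from 200 to 500 kb, the log2 ratio of the share of read pairs in FGFR1 HiChIP over Hi-C was −0.02 in ESC and 0.02 in NCC, with counting intervals on opposite sides of 0. It was below 0 on 17 of 19 chromosomes in ESC and on 8 of 19 in NCC. The difference between the cell types was not tested, since each value comes from 1 pooled table.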

How the results depend on the processing

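No paired analysis was possible because each deposited table merges both replicates, and for the same reason no replicate could be left out. With a score of at least 2 only, enriched bins were 7838 and depleted bins 27210, the medians of bins with and without a gene start −0.43 and −0.57 and of list members −0.40, and the distance ratios turned to 0.44 inside an anchor and −1.35 at 1 mb or more, with 0.46 between chromosomes and −0.07 for promoter pairs. With anchors that both tables share, depleted bins were 18516, bins without a gene start turned to 0.08, the distance ratios were −0.29 inside an anchor, 0.17 at 1 mb or more and 0.17 between chromosomes, promoter pairs −0.47, and the GC-poorest and GC-richest groups 0.84 and −0.28. Scaled to the median bin, bins with and without a gene start were −0.08 and 0.01 and list members 0.02. With at least 50 expected ends, enriched and depleted bins were 654 and 10529, both gene-start medians −0.51 and −0.67 and list members −0.51. With 50 kb bins these were 7971, 4813, −0.15, 0.22 and 0.01. Merged anchor regions, added after seeing the data, gave 8783 depleted regions and −0.03 and 0.32 with and without a gene start. Without the strongest 1% of Hi-C bins, pairs at 1 mb or more were at 0.12 and promoter pairs at −0.30. Among pairs between 2 anchors, pairs at 1 mb or more were at 0.12 and between chromosomes at 0.09. With ends at midpoints the peak ratios were −0.02 at gene starts and 0.01 at CTCF sites. Of 120 list medians under alternatives, 17 changed sign, 47 kept it and moved by under 0.1 and 56 kept it and moved by more. The changes of sign were in the housekeeping genes (−0.08 with shared anchors, −0.13 in 50 kb bins, −0.05 in 50 kb windows, from 0.18), cohesin and CTCF genes (0.04 and 0.21, from −0.33), histone genes (0.12 in 50 kb windows, from −0.41), very long neural genes (0.04 to 0.51 in 7 alternatives, from −0.08), olfactory receptor genes (−0.43 with a score of at least 2, −0.68 with at least 50 expected ends, −0.01 without pairs inside an anchor, from 0.02) and nuclear partners (0.08 scaled to the median bin, from −0.09). All list members together were at 0.10 in 50 kb windows. The causes were not tested. At this depth a 10 kb bin had a median of 26 FGFR1 and 213 Hi-C ends.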
